A study of Homo sapiens with 2 samples.

Results

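Genes for building and moving cilia were compared between 2 cultures of CL1-0, a human lung adenocarcinoma cell line that the labels describe as type II alveolar in cell type. One culture carried an FDFT1 vector and the other a control vector, and both were stably transduced and kept under puromycin for 2 weeks. FDFT1 encodes squalene synthase, an enzyme of cholesterol synthesis. RNA of each culture was hybridised to 1 Affymetrix array, so every difference below describes 2 arrays and has no replicate check. The labels do not say whether a culture was 1 clone or a pool of transduced cells, or which promoter drove the vector. The level of FDFT1 itself was not analysed here, and its overexpression is known only from the labels.

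The genes were taken by name. All genes were included whose symbol in the array annotation begins with CFAP, IFT, BBS, DNAH, DNAI or DRC followed by a number. The rule reads no measured value, but it was set with earlier results of these data known. It gave 105 genes with 246 probe sets, out of 19775 named genes with 41091 probe sets. By prefix there were 49 CFAP, 18 IFT, 8 BBS, 14 DNAH, 5 DNAI and 11 DRC genes. Of the 105 symbols, 4 are noncoding (CFAP100-DT, CFAP65-AS1, CFAP95-DT and DNAH17-AS1). A further probe set that the annotation gives to both TRIM59 and IFT80 was left out.

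A cilium grows from a basal body around a microtubule skeleton, the axoneme. Intraflagellar transport carries cargo along it: the IFT-B complex works with a kinesin motor towards the tip, and the IFT-A complex with a cytoplasmic dynein back to the base. The BBSome, built from BBS proteins, moves membrane proteins in and out of the cilium. Motile cilia also need dynein arms, whose heavy chains are DNAH proteins and whose intermediate chains are DNAI proteins, and the nexin-dynein regulatory complex of DRC proteins that links neighbouring microtubule doublets. CFAP proteins are a mixed class of cilia and flagella associated proteins, many of them found inside or on motile axonemes. Most cells can form a nonmotile primary cilium, which uses IFT and BBS proteins, whereas the beating cilia of the airway belong to multiciliated cells and not to type II alveolar cells.

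Many genes of cilia carry an X-box in the promoter, the sequence bound by RFX transcription factors. An X-box is an inverted repeat of a 6-letter core, and the core searched here was GTTGCC on either strand. RefSeq promoter windows (GRCh38.p14, 250 bases before to 50 after the start site) were found for 93 of the 105 genes, in 112 windows. The core was present in 46 of the 93 genes (49.5%), against 3983 of 27305 genes in the whole table (14.6%). Counted over windows, the shares were 43.75% of the 112 windows, 12.2% of all 35116 windows and 12.6% of protein-coding windows. The median G+C content was 61.3% in the windows of these genes, against 58.7% in all windows and 62.3% in protein-coding ones. By prefix, the core was present in 21 of 44 CFAP genes, 9 of 17 IFT genes, 3 of 7 BBS genes, 5 of 12 DNAH genes, 4 of 4 DNAI genes and 4 of 9 DRC genes. Some of these genes share a window with a neighbour, as CFAP100 does with its divergent transcript CFAP100-DT.

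The full paired form was also searched, as GTTNCC and GGNAAC in that order with 0 to 3 letters between them, a search chosen after the core had been counted. Reversed and complemented, this pattern reads the same, so 1 strand covers both. It was present in 9 of the 93 genes (9.68%), against 247 of 27305 (0.905%) in the whole table. Of these 9 genes, 6 were measured in the cells, and their sites are shown because they place the repeat beside genes whose values are given below. Each is read on the gene's strand, and capitals mark every core and the paired site.
CFAP184, chr4:7042967-7043021, minus strand: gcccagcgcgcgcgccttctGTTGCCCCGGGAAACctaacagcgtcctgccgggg
CFAP20DC, chr3:59050136-59050189, minus strand: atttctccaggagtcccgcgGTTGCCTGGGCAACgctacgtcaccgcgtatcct
DNAH1, chr3:52316133-52316247, plus strand: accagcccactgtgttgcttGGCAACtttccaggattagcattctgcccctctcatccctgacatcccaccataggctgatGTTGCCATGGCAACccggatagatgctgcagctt
DRC4, chr16:90022625-90022677, plus strand: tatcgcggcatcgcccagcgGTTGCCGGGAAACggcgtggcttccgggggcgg
IFT122, chr3:129440192-129440246, plus strand: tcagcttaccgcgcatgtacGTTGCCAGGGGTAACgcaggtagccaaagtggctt
IFT70A, chr2:177618707-177618776, minus strand: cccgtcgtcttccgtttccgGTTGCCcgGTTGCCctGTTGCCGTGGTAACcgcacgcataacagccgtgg
The windows differ in how the cores lie. IFT70A holds 3 cores in a row, the last of them in the paired site, DNAH1 holds a separate core on the other strand well before its paired site, and the other 4 hold the paired site alone. The remaining carriers, CFAP276, CFAP45 and CFAP90, were not measured in these cells.

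The values are MAS5 signals, 1 per probe set and array, on a linear scale, and signals are printed as deposited. For differences, log2 signals were centred to a median difference of 0 among probe sets that reached a floor on each array; the shift removed was -0.11 (FDFT1 minus control). Signals under 12.2, the median over both arrays, were set to this floor, and a probe set counted as measured where its higher centred signal reached it. Each gene was represented by whichever of its measured probe sets had the highest mean log2 signal. Over 14189 probe sets at or above 99.4, the 75th percentile, on at least 1 array, the 2 arrays correlated at a Pearson r of 0.989 on the log2 scale. The spread between 2 probe sets of a gene gave a probe-set error of 0.49 (log2) under a mean log2 signal of 5, then 0.30 to 7, 0.22 to 9, 0.16 to 11 and 0.097 above; it holds no difference between cultures.

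Markers of motile ciliated cells were mostly dim. Of 15 multiciliated-cell markers named on the array, 7 were measured, with summed signals of 10320 on the FDFT1 array and 10414 on the control array, nearly all from the tubulins TUBB4B and TUBA1A. By centred log2 difference, FDFT1 minus control, 5 of the 7 were above 0 and 2 below (median 0.19). In its brighter measured probe set, CAPS had 21.7 with FDFT1 and 1.14, under the floor, with control, at least 1.85-fold higher with FDFT1. Of its 2 measured probe sets, only this 1 was above 0. ZMYND10 had 16.3 with FDFT1 and 3.53, under the floor, with control (at least 0.47 on the log2 scale). RSPH1 had 35.6 with FDFT1 and 24.8 with control (0.63). Below 0 was SPMIP6, at 13.0 with FDFT1 and 20.8 with control (-0.57, error 0.49). CCNO was also below, at 38.3 with FDFT1 and 44.6 with control (-0.11). FOXJ1, TPPP3, SNTN, CIMAP3, TEKT1, TEKT2, HYDIN and DEUP1 were under the floor on both arrays. Of 11 type II alveolar markers, 7 were measured (summed signals 1263 with FDFT1 and 1543 with control). Of these 3 were above 0 and 4 below (median -0.14). The surfactant gene SFTPC had 16.9 with FDFT1 and 29.3 with control (-0.69). ABCA3 had 55.6 with FDFT1 and 79.9 with control (-0.42, error 0.30). ETV5 had 281 with FDFT1 and 383 with control (-0.34, error 0.22), with none of its 4 measured probe sets above 0. LPCAT1 had 787 with FDFT1 and 934 with control (-0.14). SFTPB had 35.3 with FDFT1 and 32.0 with control (0.25), with 1 of its 2 measured probe sets above 0. LAMP3 had 58.8 with FDFT1 and 53.0 with control (0.26). The transcription factor NKX2-1 had 29.3 with FDFT1 and 31.1 with control (0.02 once centred). SFTPD, NAPSA, SLC34A2 and PGC were under the floor on both arrays. Blood and immune markers (4 of 7 measured) summed to 86.4 with FDFT1 and 79.7 with control, and fibroblast and endothelial markers (3 of 8 measured) to 118 with FDFT1 and 98.7 with control. The part of other cell types in the differences below was not tested, and with bulk RNA fewer cells of a type and less RNA per cell cannot be told apart.

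The prefixes differed in how much of each was measured at all. All 18 IFT genes and all 8 BBS genes were measured on at least 1 array. Of the CFAP genes 25 of 49 were measured, of the DRC genes 6 of 11, of the DNAI genes 2 of 5 and of the DNAH genes 5 of 14. Together this was 64 of 105 genes (61.0%), against 65.6% of all named genes. By probe set the contrast was wider: 85.4% of IFT and 68.75% of BBS probe sets were measured, against 36.5% for CFAP, 36.4% for DRC, 18.2% for DNAI and 13.5% for DNAH, and 59.9% over all named genes. Genes with several probe sets have more chances to pass, which matters most for the 14 DNAH genes with their 52 probe sets.

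Among the 41 genes not measured were DNAH9, DNAH11, DNAH17 and DNAH8, heavy chains of outer dynein arms, and DNAH2, DNAH7, DNAH10 and DNAH12, heavy chains of inner arms. DNAI2, an outer arm intermediate chain, was also under the floor, as were DNAI3 and DNAI7. So were DRC1, DRC2, DRC5, DRC7 and DRC11, of which DRC1 and DRC2 form the base plate of the nexin-dynein regulatory complex. The 24 unmeasured CFAP symbols included CFAP43, CFAP45, CFAP52, CFAP53, CFAP57 and CFAP61, all known from motile axonemes. The core motif did not follow this division closely: it was in 30 of 56 measured genes with a window (53.6%) and in 16 of 37 unmeasured ones (43.2%).

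**Figure D1:**
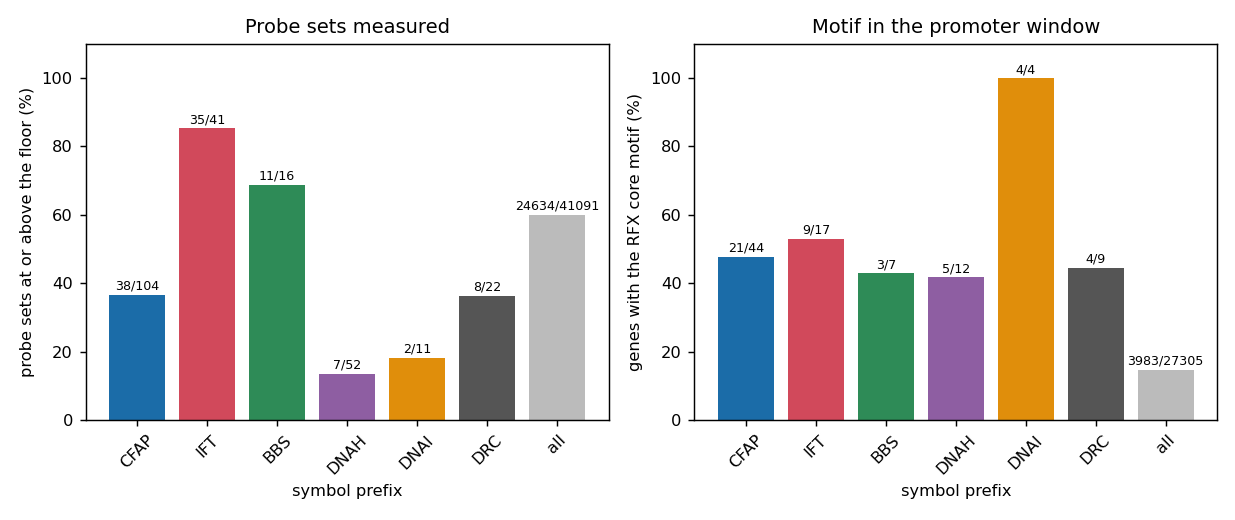
Bars give, for each prefix and for all named genes, the percentage of probe sets measured on at least 1 of the 2 arrays. They also give the percentage of genes whose promoter window holds the RFX core GTTGCC on either strand. For the motif, the last bar is all genes with a RefSeq promoter window. IFT and BBS bars are tallest for measured probe sets and DNAH is lowest at 13.5%, while for the motif DNAI stands highest with 4 of 4 genes.

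IFT25, a small IFT-B subunit, had 1859 with FDFT1 and 2064 with control. IFT22, a Rab-like GTPase of IFT-B, had 1147 with FDFT1 and 1326 with control. Signals differ between probe sets in part through the probes, so genes are not ranked by them. IFT140 was under the floor on the control array, so its difference is known only as a lower bound. The other 17 IFT genes lay between -0.38 and 0.46 on the log2 scale, 8 above 0 and 9 below. With IFT140 at its bound the median of the 18 was -0.0024.

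By brightest probe set, 4 of 5 IFT-A genes were below 0. For IFT122 and IFT43 this rests on 1 probe set of a kind that can bind related transcripts. The other measured probe sets of these 2 genes were above 0. IFT122 had 104 with FDFT1 and 147 with control, a log2 difference of -0.38 against a probe-set error of 0.30, but a second IFT122 probe set went the other way with 36.7 with FDFT1 against 29.3 with control (0.43). IFT43 had 368 with FDFT1 and 443 with control (-0.16), and its other 2 probe sets were near equal, at 0.11 and 0.0090. IFT140 had 12.0 with FDFT1, just over the floor once centred, and 5.34 with control, under it, which bounds the difference at no less than 0.03. Other IFT-A subunits do not carry an IFT symbol. TTC21B was not analysed here. WDR19 had 419 with FDFT1 and 518 with control (-0.20), and WDR35 had 216 with FDFT1 against 273 with control (-0.23), both with 2 measured probe sets that were all lower with FDFT1. Over these 5 IFT-A genes the median was -0.20, and 2 of the 5 differed by more than 1 probe-set error. Of all measured genes, 66.9% lay within 1 error, so 2 of 5 is too few to be set apart from that background. The split of IFT genes into complexes was made after their values had been seen.

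Within IFT-B, the 11 core genes had a median of -0.03, with 5 above 0 and 6 below. IFT81, which binds tubulin together with IFT74, stood at 276 with FDFT1 and 219.7 with control (0.44, error 0.22). Its second measured probe set, at 7.94 with FDFT1 and 12.7 with control, gave only -0.0016 against the floor. IFT74 had 88.6 with FDFT1 and 97.5 with control (-0.03). IFT88, a scaffold subunit whose loss in mice gives cilia defects, had 207 with FDFT1 and 197 with control (0.18). IFT70B had 28.8 with FDFT1 and 22.5 with control (0.46, error 0.49) and IFT70A had 41.8 with FDFT1 against 38.1 with control (0.24). IFT70A and IFT70B are near-identical copies, so either may hold signal of the other.

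IFT56 had 4 measured probe sets that did not go 1 way. The brightest by the rule had 140.2 with FDFT1 and 174 with control (-0.20), the next bright ones had 146 with FDFT1 against 158 with control (-0.01) and 166 with FDFT1 against 142 with control (0.33), and the dimmest had 14.2 with FDFT1 against 20.1 with control (-0.39). IFT46 had 45.5 with FDFT1 and 53.9 with control (-0.14) and IFT52 had 495 with FDFT1 against 584 with control (-0.13). The 6 peripheral IFT-B genes, with TRAF3IP1 and CLUAP1 counted in, had a median of 0.11, with 4 above 0 and 2 below. Of these, IFT172 had 61.6 with FDFT1 and 55.8 with control (0.25), and none differed by more than 1 error.

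**Figure D2:**
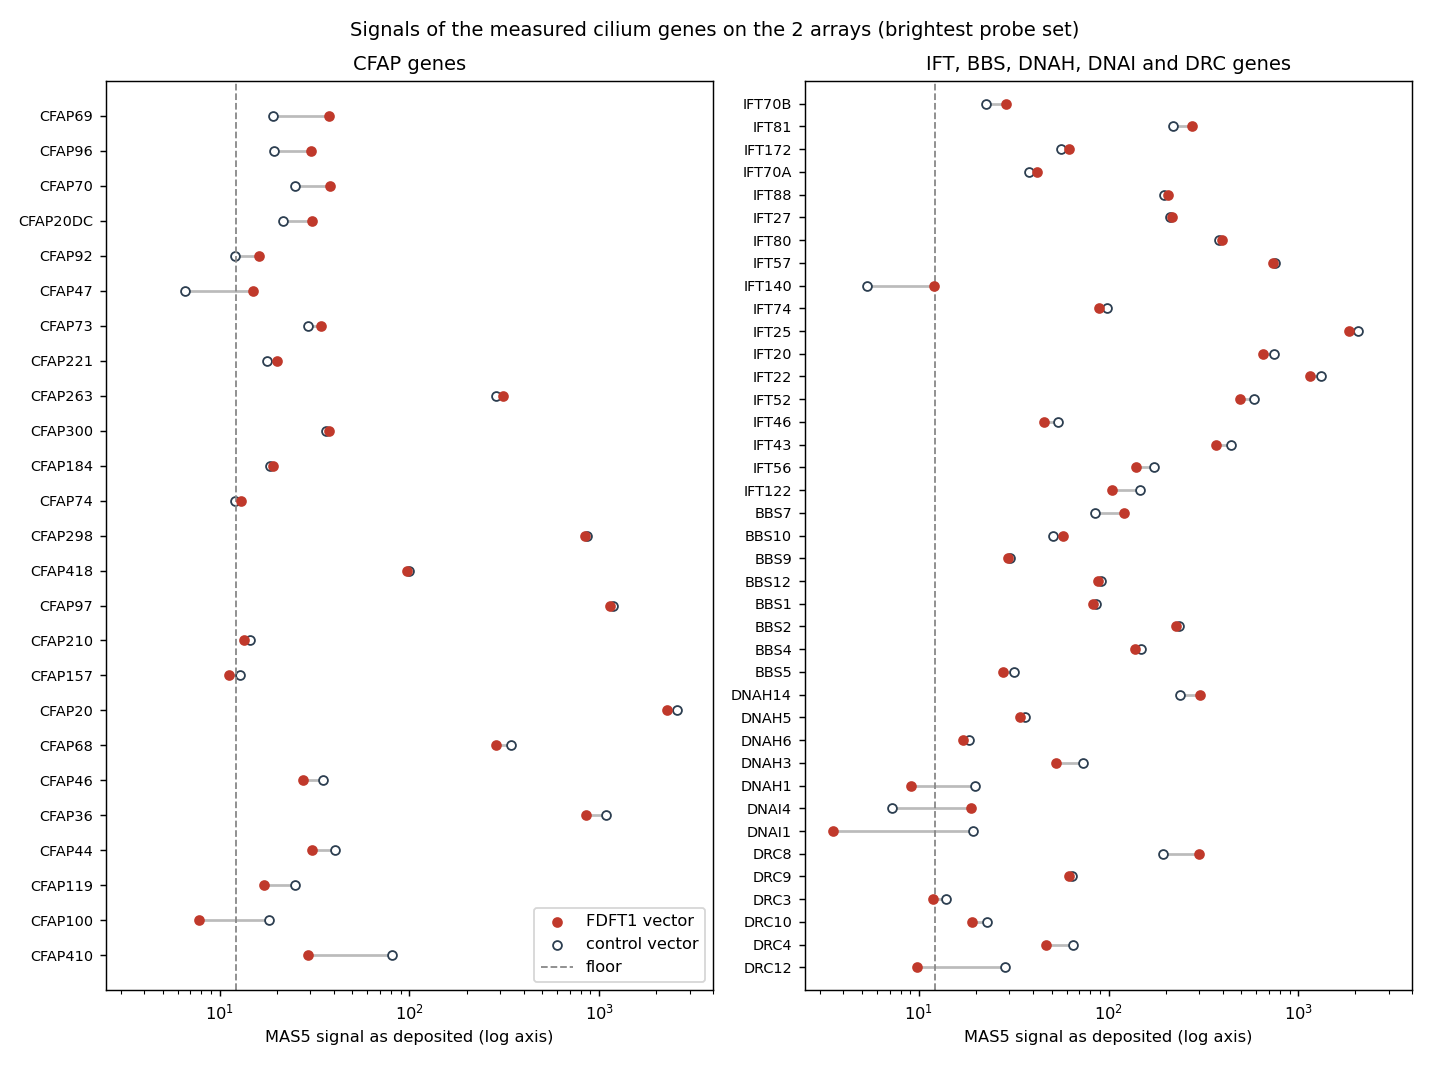
Deposited signals of the measured genes on the FDFT1 array and the control array, joined by a line for each gene and grouped by prefix, on a log axis with the floor of 12.2 marked. The 2 points of CFAP20, IFT25, IFT22 and CFAP97 lie close together, and those of DNAI1, DRC12 and CFAP410 lie far apart.

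Among BBS genes, 7 of 8 were above 0, with a median of 0.06 and a range from -0.09 to 0.61. BBS7, a beta-propeller subunit of the BBSome, had 119.9 with FDFT1 and 84.4 with control. That is 0.61 on the log2 scale, 1.53-fold, and over 2 probe-set errors. A second BBS7 probe set gave 74.8 with FDFT1 and 70.8 with control (0.19). BBS10, a chaperonin-like protein that helps to assemble the BBSome, had 57.3 with FDFT1 and 50.6 with control (0.28, error 0.30). BBS2 had 226 with FDFT1 and 235 with control (0.05), BBS12 had 87.8 with FDFT1 against 90.8 with control (0.06), and BBS9 had 29.6 with FDFT1 against 30.2 with control (0.08), with a second BBS9 probe set at 0.55. BBS5 was the 1 gene below 0, with 27.9 with FDFT1 and 31.9 with control (-0.09). Apart from BBS7, the BBS differences were within 1 probe-set error. Before centring, 5 of these 7 genes above 0 had a lower signal with FDFT1 than with control, so for them the direction comes from the scaling.

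The dynein heavy chains were represented by 5 genes. DNAH14, a little-studied heavy chain, was the only bright one, at 304 with FDFT1 and 237 with control (0.46, error 0.22). DNAH3, an inner arm heavy chain, had 52.6 with FDFT1 and 73.5 with control (-0.38, error 0.30). Its 1 measured probe set is of a kind that can bind related transcripts. DNAH1, also of the inner arms, had 9.09 with FDFT1, under the floor, and 19.8 with control, which is at least 1.56-fold lower with FDFT1. A second DNAH1 probe set had 7.76 with FDFT1, again under the floor, and 14.5 with control (-0.19). DNAH6 had 17.1 with FDFT1 and 18.5 with control (-0.0058). The outer arm heavy chain DNAH5 had 34.0 with FDFT1 and 36.3 with control (0.0098) in its brightest probe set and 17.1 with FDFT1 against 13.0 with control (0.50) in another. The 3 measured inner arm heavy chains had a median of -0.38, which is the value of DNAH3. DNAH6 was near 0, and DNAH1 is known only by a bound. Of the 7 inner arm genes, 4 were not measured.

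Both measured intermediate chains had 1 array under the floor, so the direction of each was set by which array reached it. DNAI1, an outer arm chain mutated in primary ciliary dyskinesia, had 3.53 with FDFT1 and 19.2 with control, at least 1.52-fold lower with FDFT1. Its other probe set, under the floor on both arrays, had 4.83 with FDFT1 and 0.35 with control. DNAI4 had 18.8 with FDFT1 and 7.22 with control, at least 1.60-fold higher. Each rests on 1 measured probe set in the range where the probe-set error is 0.49.

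Among the 6 measured DRC genes the median was -0.13, with 2 above 0 and 4 below. DRC8 was the bright exception, at 299 with FDFT1 and 193 with control (0.74, 1.67-fold, over 2 probe-set errors). A second DRC8 probe set had 100.03 with FDFT1 and 77.3 with control (0.48), and another had 38.3 with FDFT1 against 42.0 with control (-0.03). DRC12 had 9.80 with FDFT1, under the floor, and 28.5 with control, at least 2.25-fold lower with FDFT1, and it has 1 measured probe set. DRC4, also known as GAS8 and a core subunit, had 47.0 with FDFT1 and 65.2 with control (-0.37, error 0.30). DRC10 had 19.0 with FDFT1 and 22.9 with control (-0.16), DRC3 had 11.9 with FDFT1 against 13.8 with control (-0.11), and DRC9 had 62.2 with FDFT1 against 64.0 with control (0.07).

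The CFAP genes had a median of 0.08, with 16 above 0 and 9 below. The 20 that reached the floor on both arrays ran from -1.37 to 1.09, and the other 5 are known only by a bound. CFAP69, a protein needed for sperm flagella, had 37.8 with FDFT1 and 19.1 with control, 2.14-fold higher, but its second probe set had 18.9 with FDFT1 against 20.1 with control (0.02). CFAP410, also called C21orf2, had 29.2 with FDFT1 and 81.1 with control, 2.58-fold lower with FDFT1. Another CFAP410 probe set had 21.6 with FDFT1 and 18.1 with control (0.36), and one more had 3.99 with FDFT1, under the floor, against 13.9 with control (-0.13). The last of these is only a bound set by the floor.

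CFAP70 was past 1.5-fold higher in both of its measured probe sets. It had 38.0 with FDFT1 and 24.8 with control in the brighter (0.72) and 19.7 with FDFT1 against 12.7 with control in the dimmer (0.74), both with a mean log2 signal under 5 and an error of 0.49. CFAP96 had 30.4 with FDFT1 and 19.4 with control (0.75), and 17.0 with FDFT1 against 32.4 with control (-0.83) in its second probe set. CFAP20DC, whose paired X-box is shown above, had 30.7 with FDFT1 and 21.6 with control (0.61), in a probe set of a kind that can bind related transcripts. CFAP44 had 30.6 with FDFT1 and 40.5 with control (-0.30), and 41.8 with FDFT1 against 26.3 with control (0.77) in the other probe set.

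The bright CFAP genes differed less. CFAP20, an inner junction protein of the axoneme, had 2282 with FDFT1 and 2586 with control (-0.07, error 0.097). CFAP36 had 850.0 with FDFT1 and 1092 with control (-0.25, error 0.16). CFAP68 had 285 with FDFT1 and 341 with control in its brightest probe set (-0.15, error 0.22). A second had 261 with FDFT1 and 304 with control (-0.11), and both are of a kind that can bind related transcripts. The last measured CFAP68 probe set had 4.50 with FDFT1, under the floor, and 15.2 with control, so it could only come out lower. CFAP298 had 847 with FDFT1 and 861 with control (0.08), and CFAP97 had 1139 with FDFT1 against 1177 with control (0.06). Of dim members, CFAP119 had 17.1 with FDFT1 and 25.04 with control (-0.44), and CFAP100 had 7.77 with FDFT1, under the floor, against 18.2 with control (no smaller than 0.52 in size, lower with FDFT1).

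**Figure D3:**
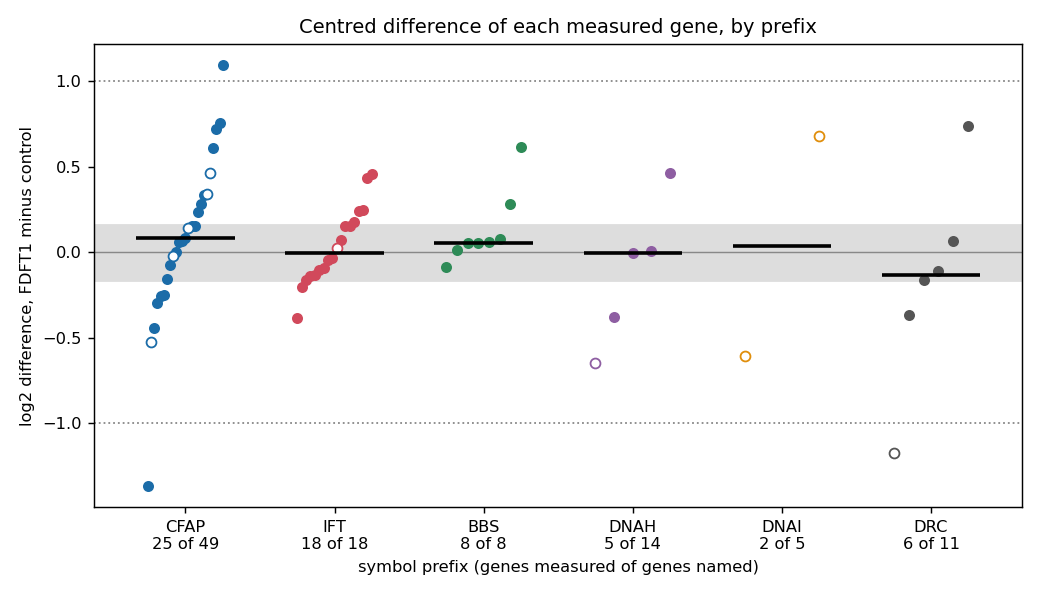
Centred log2 difference, FDFT1 minus control, of each measured gene by prefix; open points have 1 array under the floor and are lower bounds, black bars are medians, the grey band holds the middle 50% of all measured genes and dotted lines mark 2-fold. Prefix medians lie between -0.13 and 0.08, and 3 genes pass a dotted line: CFAP69 above, CFAP410 and DRC12 below.

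Over all 64 measured genes the median log2 difference was 0.05, against -0.0013 over all 12968 measured genes, and 37 were above 0 (57.8%, against 49.8% of all genes). At least 2-fold higher with FDFT1 was 1 gene, against 0.571% of all genes, and at least 2-fold lower were 2 genes, against 0.578%. At 1.5-fold, 7 genes were higher, against 3.91% of all genes, and 4 were lower, against 3.28%. By probe set, 1 of 101 was at least 2-fold higher, against 0.775% of all, and 2 were lower, against 0.71%. Counts of 1 and 2 are too small to be set apart from these backgrounds. Without centring, all genes shifted by -0.11, these genes split 24 above 0 and 39 below, and the 2-fold calls over all genes split 48 higher and 109 lower in place of 74 and 75.

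The genes at least 1.5-fold different were mostly dim ones. Of the 64 genes, 26 (40.6%) had a mean log2 signal under 5, where 22.0% of all genes lie. In that range 8 of the 26 (30.8%) differed at least 1.5-fold, against 20.9% of all genes there. From 5 to 7 it was 2 of 17 (11.8%), against 7.74%, and from 7 to 9 it was DRC8 alone among 12, against 2.63%. None of the 9 genes above 9 differed that much. The 24 genes at or above 99.4 on an array had a median of 0.06, between -0.38 and 0.74, with 14 above 0 and 10 below. With the 10 genes that had 1 array under the floor taken at their bounds, 45 of the 64 genes lay within 1 probe-set error of 0 and 7 lay beyond 2 errors, against 66.9% and 7.25% of all genes.

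Probe sets of the same gene often went different ways, about as often as over the whole array. Of 28 genes with at least 2 measured probe sets, 10 had all of them higher with FDFT1, 2 had all lower and 16 were mixed. The 2 were CFAP68 and DNAH1, each with a probe set under the floor on the FDFT1 array. Some genes were mixed only through differences near 0, as BBS4 was (0.01 and -0.04). All probe sets thus went 1 way in 12 of 28 genes, against 40.8% of 6535 such genes on the array. In 5 of the 28 genes the probe sets lay more than 1 apart on the log2 scale: CFAP410 (1.72), CFAP96 (1.58), CFAP69 (1.08), CFAP44 (1.07) and IFT27 (at least 1.06). How common such a span is among all genes was not computed, so it is not read as a trait of these genes. IFT27, a Rab-like GTPase that links IFT to the BBSome, had 217 with FDFT1 and 209 with control in its brightest probe set (0.15) and 19.0 with FDFT1 against 22.0 with control in another (-0.10). Its remaining probe set had 22.8 with FDFT1 and 9.66, under the floor, with control, a lower bound of 0.96.

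**Figure D4:**
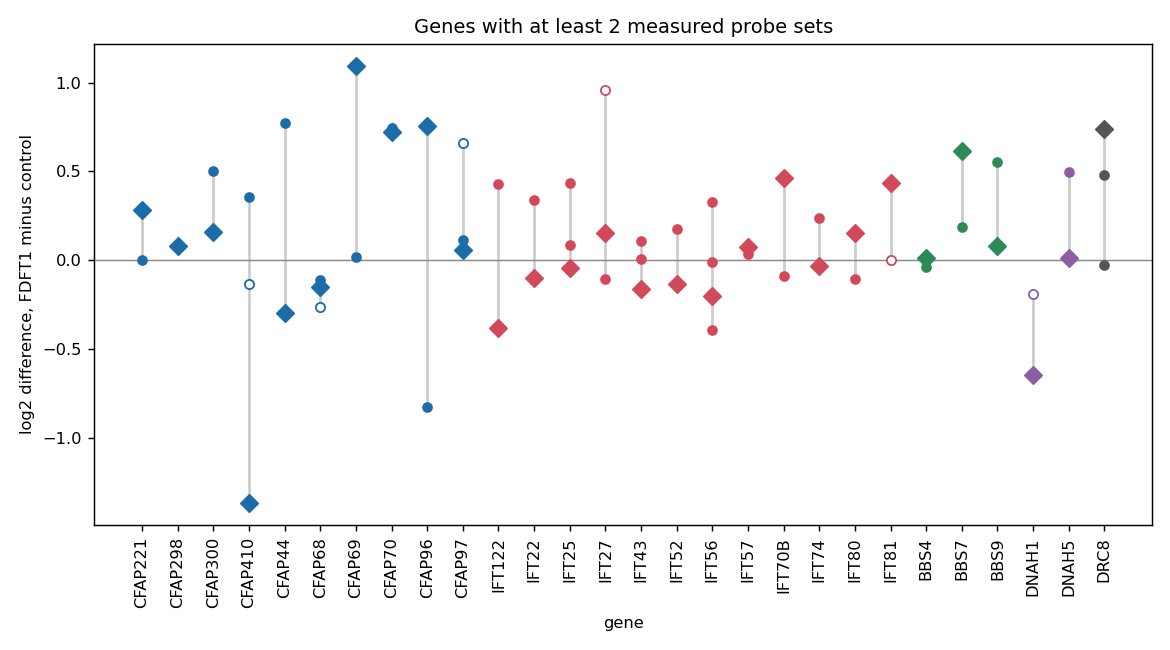
Centred log2 differences, FDFT1 minus control, of every measured probe set in genes with 2 or more; diamonds are the brightest probe set of a gene and open symbols have 1 array under the floor. Points of a gene spread over both sides of 0 in 16 of the 28 genes, most widely in CFAP410 with a span of 1.72.

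Genes with and without the RFX core did not separate by their differences. The 30 measured genes with the core had a median of 0.06, with 17 above 0 and 13 below, and the 26 without it had a median of 0.02, with 15 above and 11 below. The 6 genes with the paired site, whose sequences are printed above, had a median of -0.11. Of them CFAP20DC, IFT70A and CFAP184 were above 0, and IFT122, DRC4 and DNAH1 below. CFAP184 had 19.1 with FDFT1 and 18.5 with control (0.15, error 0.49). Over all measured genes the medians were -0.0058 with the core and -0.0014 without.

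Other genes of the same machinery were described from companion lists, beside 49.8% of all measured genes above 0. Of 4 IFT subunits under other symbols, 1 was above 0 and 3 below (median -0.15), with TRAF3IP1 at 205 with FDFT1 and 198 with control the higher one. Of 13 measured ciliary motor genes, 8 were above 0 and 5 below (0.07). KIF3A, a subunit of the kinesin that drives IFT, had 315 with FDFT1 and 259 with control (0.39), with 2 of 2 probe sets higher. KIF17, another ciliary kinesin, had 14.9 with FDFT1 and 25.2 with control (-0.65), while the IFT dynein heavy chain DYNC2H1 had 57.1 with FDFT1 against 63.6 with control (-0.05). Of 8 BBSome partners, 5 were above 0 and 3 below (0.02). The lowest was BBIP1 at 705 with FDFT1 and 894 with control (-0.24), although 2 of its 3 measured probe sets were above 0. The highest was RABEP1 at 995 with FDFT1 against 937 with control (0.19), with 3 of its 5 above 0.

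Among genes for assembling and docking dynein arms, 19 of 25 were measured, 12 above 0 and 7 below, with a median of 0.10. DNAAF2, a cytoplasmic assembly factor, had 481 with FDFT1 and 319 with control (0.70, error 0.22). DNAAF4, another, had 57.6 with FDFT1 and 40.0 with control (0.63, error 0.30). The light chain gene DNAL4 had 36.9 with FDFT1 and 77.4 with control (-0.96, error 0.30). Each of these 3 rests on 1 measured probe set. Of 14 radial spoke and central pair genes 8 were measured, 6 above 0 and 2 below (0.08). The 2 below, RSPH14 and ROPN1L, were under the floor on the FDFT1 array, so they could only come out lower. RSPH1, a spoke head protein, had 35.6 with FDFT1 and 24.8 with control (0.63, error 0.49). ROPN1L had 5.80 with FDFT1 against 20.3 with control (-0.68, a bound set by the floor), and RSPH14 had 6.95 with FDFT1 against 15.0 with control.

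Of 14 genes on a broad list of cilium gene regulators 10 were measured, 3 above 0 and 7 below (median -0.15). The 7 include RFX5 (-0.14) and TRRAP (-0.31), whose part in cilium genes was not tested here. RFX1 had 86.2 with FDFT1 and 124 with control (-0.42, error 0.30), and RFX3, the RFX factor best known in ciliated cells, had 33.5 with FDFT1 against 41.4 with control (-0.20), although 3 of its 4 probe sets were above 0. MYB, which acts early in multiciliated cells, had 28.7 with FDFT1 and 13.8 with control (1.16, error 0.49) in 1 measured probe set. FOXJ1, the main factor of motile cilia, was under the floor at 3.39 with FDFT1 and 3.13 with control. All 22 transition zone genes, which gate the base of the cilium, were measured, 14 above 0 and 8 below (0.08). Of these CEP162 had 67.6 with FDFT1 and 29.8 with control (1.29) and TMEM67 had 40.8 with FDFT1 against 19.99 with control (1.14), with all their measured probe sets higher, whereas TCTN2 had 76.0 with FDFT1 against 129 with control (-0.66).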

How the data were processed

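The authors deposited 1 linear signal intensity per probe set and array, made with MAS5 per the submitters' processing notes. For the MAS5 version, the scaling target and detection calls, nothing is given in the sources used here. With 1 array per group, the number of arrays limits the precision, and no test, p-value or replicate error was computed.

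From the 54675 probe sets, 62 controls were removed. The annotation gave 1 gene to 41091 probe sets, several to 1801 and none to 11721, and the last 2 kinds were not used for genes. Signals were centred, floored and reduced to genes as stated with the results, in Python 3.11.15 with numpy 2.4.6, pandas 2.3.3 and statsmodels 0.14.6, and the code was tested on simulated data. The floor is not a detection limit. All 105 genes matched RefSeq (GRCh38.p14), the source of the promoter windows.

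Alternatives were no centring, quantile and loess normalization, other floors and folds, averaging the probe sets of a gene, and no probe sets ending in _x_at or _s_at, which can bind several transcripts.

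Genes named with values were those at least 1.5-fold different, up to 4 each way and the brightest in each prefix, those with probe sets at least 1 apart, and up to 3 each way of each companion list; others were chosen after their values were seen. The genes, companion lists and markers were chosen with earlier results of these data known.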

Additional observations from a re-analysis of the deposited data

How the results depend on the processing

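No paired analysis was possible because each group has 1 array, and no array could be left out. The 1 gene at least 2-fold higher became 0 without centring, 15 without a floor, 0 with the floor at the 75th percentile, 0 with the mean of probe sets, 7 at 1.5-fold and 0 at 3-fold. The 2 genes at least 2-fold lower became 12 without a floor, 0 with the floor at the 75th percentile, 1 with the mean of probe sets, 1 without _x_at and _s_at probe sets, 4 at 1.5-fold and 0 at 3-fold. Without centring the median of all genes shifted by -0.11, and the medians here became -0.051 over all prefixes, -0.025 for CFAP and -0.14 for IFT. Without _x_at and _s_at probe sets they were 0.11 over all prefixes, 0.24 for IFT and -0.37 for DRC. For IFT the mean of probe sets gave 0.077. With the floor at the 75th percentile 24 genes were left, with medians of -0.065 for IFT, 0.47 for DNAH and 0.74 for DRC, the last 2 from 1 gene each, and no DNAI gene. Without a floor the DNAH median was 0.21. By gene, the difference moved by more than its probe-set error for 10 of 64 with the mean of probe sets, 6 of 47 without _x_at and _s_at probe sets, 5 of 64 without a floor and 1 of 63 without centring, and for none of 63 with quantile or loess normalization. Other causes of these moves were not tested, and dim signals near the floor limit most of the CFAP, DNAH, DNAI and DRC values.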

Other observations

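Probe sets under the floor have signals that were not used above. As deposited, 50.3% of the 145 unmeasured probe sets of these genes were higher on the FDFT1 array than on the control array, against 49.8% of 16457 unmeasured probe sets of all named genes. In genes with at least 5 probe sets, chosen after the values were seen, the direction of all deposited signals was counted. DNAI4 was higher with FDFT1 in 5 of 5 probe sets, of which 1 was measured. DNAH1 was higher in 4 and lower in 9 of 13, and CFAP91 was higher in 2 and lower in 6 of 8, none of them measured. DNAH3 was higher with FDFT1 in 4 of 5, although its 1 measured probe set was lower. The other 4 such genes were nearer to even: BBS9 was higher in 3 and lower in 2, CFAP410 higher in 3 and lower in 4, DNAH6 higher in 5 and lower in 3, and DRC11 higher in 2 and lower in 3.

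Measured probe sets were also set side by side by kind of identifier. The 16 IFT ones ending in _x_at or _s_at had a median log2 difference of -0.0085, with 8 above 0 and 8 below, and the other 19 had a median of 0.15, with 12 above and 7 below. For DRC the medians were -0.02 for 4 probe sets of the first kind and -0.20 for 4 of the second, for CFAP 0.06 and 0.08, and for BBS 0.05 and 0.07. Over all named genes the medians were -0.02 for 9436 probe sets of the first kind and 0.01 for 15198 of the second. The difference between the kinds was not tested.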
